A study of Drosophila melanogaster with 6 samples.

Results

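Genes of the fat body's storage and yolk proteins were measured in 2 fragments of the Drosophila melanogaster wing imaginal disc, a sheet of larval epithelium from which the wing, its hinge and the dorsal thorax of the adult arise. Discs of wild-type larvae in the third instar were dissected into body wall and wing/hinge pieces, and total RNA of each fragment was hybridised to 3 Affymetrix arrays. The labels call the arrays biological replicates and state the purpose as a search for transcripts restricted in space within the disc. Sex and number of larvae were not used here. The members were all probe sets whose single gene symbol in the platform annotation was one of 9 genes, namely Lsp1alpha, Lsp1beta, Lsp1gamma, Lsp2, Fbp1, Fbp2, Yp1, Yp2 and Yp3. These came to 6 probe sets of 13966 for fly RNA, 1 each for Lsp2, Fbp1, Fbp2, Yp1, Yp2 and Yp3. No probe set carried the name of Lsp1alpha, Lsp1beta or Lsp1gamma, and those 3 genes were not analysed here.

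The fat body is the insect organ that combines the work of liver and adipose tissue, and it is not part of the disc. Late in larval life it secretes larval serum proteins, large hexamers (hexamerins) encoded by the Lsp1 genes and Lsp2, into the haemolymph, and before metamorphosis it takes them back up as an amino acid store. Fbp1 encodes a fat body membrane protein that serves as the receptor for that uptake and is switched on by the moulting hormone ecdysone, while Fbp2 encodes a fat body protein related to alcohol dehydrogenase. Yp1, Yp2 and Yp3 encode the yolk proteins, which the fat body and the ovarian follicle cells of adult females make for the oocyte.

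The fragments carried the markers of their labels. All 4 body wall genes listed (pnr, eyg, B-H1 and sr) and all 4 genes of the adult muscle precursors that lie under the body wall epithelium (twi, Him, htl and zfh1) were called higher in body wall, and all 4 wing/hinge genes (nub, pdm2, dve and Dll) were called higher in wing/hinge (limma, Benjamini-Hochberg adjusted p under 0.05). Values are the deposited intensities on a linear scale. As negative controls served 23 probe sets against yeast, mouse and bacterial sequences, whose highest value ran from 39.8 to 91.8 per array. Between 54.0% and 65.9% of fly probe sets lay above the highest control of their own array. The arrays also differed in range. The maximum was 24976 or more on a wide-range set (wing/hinge 1, wing/hinge 2, body wall 1) and 14881 or less on the narrow-range set of the other 3 arrays. Values within each of these sets are given where they bear on a member. Each such difference rests on 1 array for 1 of the fragments. That array is body wall 1 in the wide-range set and wing/hinge 3 in the narrow-range set. The 3' over 5' intensity ratio of the actin control moved with this split, at 1.92 to 2.98 on the wide-range and 1.12 to 1.28 on the narrow-range arrays, and its part in the members' values was not tested. The aliases of body wall 1 and 2 share a number, and whether these arrays share an RNA source was not tested.

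Of the 6 genes, Lsp2 and Fbp1 were above every negative control on all 6 arrays, Fbp2, Yp2 and Yp3 on 4 each, and Yp1 on none. Lsp2 and Fbp1 had higher values on each body wall array than on any wing/hinge array. Neither difference passed the adjusted threshold, and no member was called. Of the 11698 probe sets tested, 0.915% were called, and 0 calls among the 5 tested members are read against that share. Without adjustment, 2 of the 5 had a limma p under 0.05, beside 8.97% of all probe sets tested. The 3 body wall values all lay above the 3 wing/hinge values for 2 of the 5 members, and for 8.48% of all tested. The reverse order held for 0 members and 6.53% of all tested. The median log2 difference (body wall minus wing/hinge) was 0.79 over the 5 members and 0.03 over all tested probe sets.

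**Figure D1:**
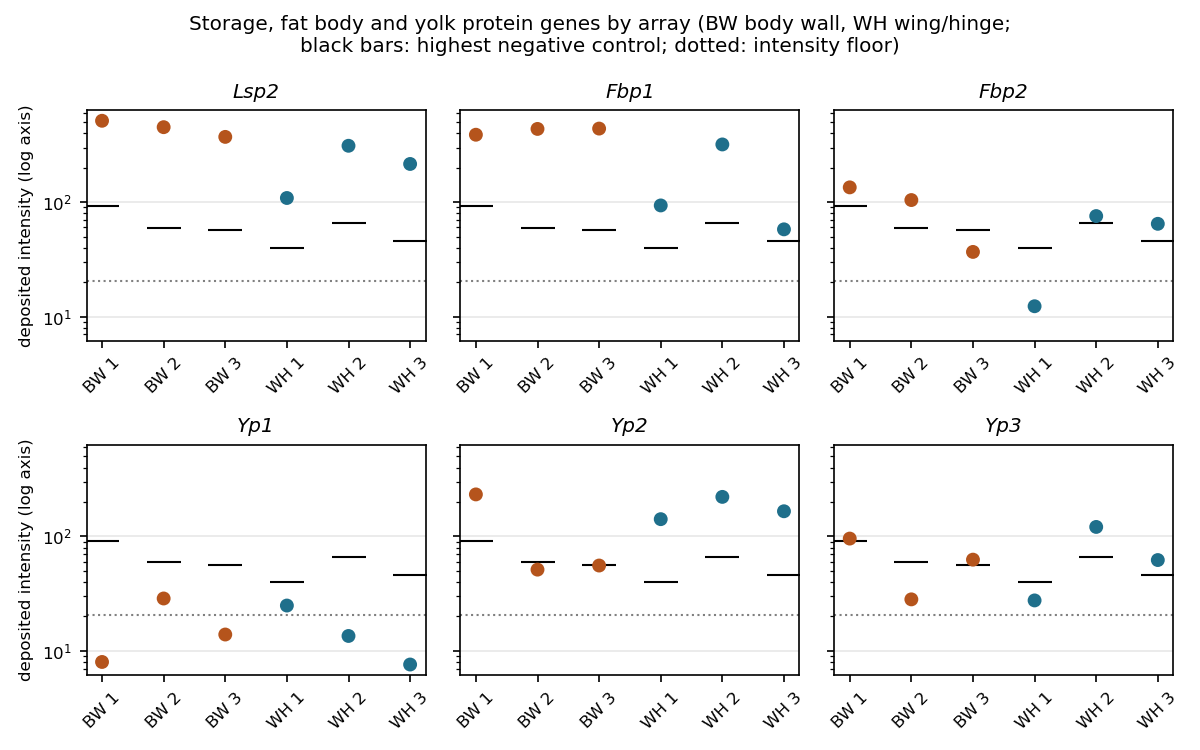
Deposited intensity (log axis) of the 6 measured genes on the 3 body wall (BW, orange) and 3 wing/hinge (WH, blue) arrays. Black bars mark the highest negative control of each array and the dotted line the intensity floor of 20.4; Lsp2 and Fbp1 lie above the bars on all 6 arrays and Yp1 lies below them on all 6.

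Lsp2, the only larval serum protein gene measured, read 513.7, 451.6 and 371.4 on body wall 1, 2 and 3. On wing/hinge 1, 2 and 3 it read 108.6, 310.6 and 215.4. The groups did not overlap, and the lowest body wall value exceeded the highest wing/hinge value by 60.8. Body wall averaged 446 ± 71.3 and wing/hinge 212 ± 101 (mean intensity ± SD, n = 3 each). The log2 difference was 1.19 (SE 0.41), a 2.28-fold higher level in body wall with a 95% interval of 1.16-fold to 4.47-fold, and it did not pass (limma adjusted p = 0.420). A difference at least as large toward body wall was seen in 2.85% of all tested probe sets. Among fly probe sets of the same array, Lsp2 ranked at the 75.3 to 83.1 percentile on body wall arrays and at the 53.7 to 73.2 percentile on wing/hinge arrays. Within the 3 wide-range arrays the log2 difference was 1.48 and within the 3 narrow-range arrays 0.93.

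Fbp1, the receptor gene for larval serum protein uptake, read 387.9, 436.0 and 439.0 on body wall 1, 2 and 3. On wing/hinge 1, 2 and 3 it read 93.5, 319.0 and 57.8. The body wall arrays lay close together, within 1.13-fold, while the wing/hinge arrays spread over 5.52-fold, and the groups were separated by 68.9. Body wall averaged 421 ± 28.7 and wing/hinge averaged 157 ± 142 (SD, n = 3 each). The log2 difference of 1.81 (SE 0.60), or 3.51-fold with a 95% interval of 1.31-fold to 9.40-fold, did not pass (limma adjusted p = 0.397), although only 0.821% of tested probe sets had a difference as large toward body wall. Without wing/hinge 2 the log2 difference was 2.52 (limma adjusted p = 0.0546). It was 1.17 within the wide-range arrays and 2.92 within the narrow-range arrays. The only wing/hinge array of the narrow-range set, wing/hinge 3, read 57.8, near its highest control of 46.0. Fbp1 ranked at the 77.8 to 79.1 percentile of fly probe sets on body wall arrays and at the 38.3 to 73.8 percentile on wing/hinge arrays.

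Wing/hinge 2 was thus the wing/hinge array nearest to the body wall values for Lsp2 and Fbp1. It was also the highest wing/hinge array for Fbp2 (75.5, against 64.6 and 12.3), Yp2 and Yp3, though not for Yp1. Of the defining fat body markers read below, only Apoltp was highest there among wing/hinge arrays, and Tsf1 was lowest there (16.6). Wing/hinge 2 also had the highest negative control of its group, at 66.1 against 39.8 and 46.0. Arrays of bulk fragments cannot tell fewer cells of a type from less RNA per cell, and the number of fat body cells in each fragment was not measured.

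Fbp2, the gene of the dehydrogenase-related fat body protein, was dimmer. It read 134.5, 104.2 and 36.7 in body wall and 12.3, 75.5 and 64.6 in wing/hinge, in order of replicate number. The groups overlapped, with body wall 3 below wing/hinge 2 and 3, and body wall 3 and wing/hinge 1 lay under the highest control of their array. The log2 difference was 0.79 (SE 0.66; 95% interval -0.79 to 2.37; limma adjusted p = 0.819), with the wing/hinge 1 value raised to the floor of 20.4. It was 0.20 without wing/hinge 1. Within the wide-range arrays it was 1.78 and within the narrow-range arrays -0.06.

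No yolk protein gene was separated between the fragments. Yp1 read 8.0, 28.7 and 13.9 in body wall and 24.9, 13.5 and 7.6 in wing/hinge. All 6 values were under the highest control of their array and 4 were at or under the floor, so Yp1 was not tested and its fold is not given. Yp1 and Yp2 are direct neighbours in the RefSeq gene order (Release 6), yet only Yp2 gave values above the controls.

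Yp2 read 233.0, 51.3 and 55.7 on body wall 1, 2 and 3. On wing/hinge 1, 2 and 3 it read 141.6, 221.7 and 166.0. All 3 wing/hinge values and body wall 1 lay above the highest control of their array, while body wall 2 and body wall 3 lay just below it. The groups overlapped through body wall 1, the highest value of the 6. The log2 difference was -0.99 (SE 0.60; 95% interval -2.41 to 0.43; limma adjusted p = 0.725), that is, a 1.99-fold higher level in wing/hinge that did not pass. Without body wall 1 it was -1.70 (limma adjusted p = 0.124). Within the wide-range arrays the value was 0.40 and within the narrow-range arrays -1.63. The sign differed, but body wall 1 is the only body wall array of the wide-range set. Wing/hinge 3 is the only wing/hinge array of the narrow-range set.

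Yp3 read 95.8, 28.2 and 62.7 in body wall and 27.6, 121.1 and 62.2 in wing/hinge. The groups overlapped, and 1 array of each fragment (body wall 2 and wing/hinge 1) lay under its highest control. The log2 difference was -0.10 (SE 0.65; 95% interval -1.64 to 1.44; limma adjusted p = 0.983). With body wall 2 or wing/hinge 2 left out the value turned to 0.39 or 0.42. It was 0.73 within the wide-range and -0.56 within the narrow-range arrays. The intervals of Fbp2, Yp2 and Yp3 leave room for differences of 2-fold or more in at least 1 direction. With 3 arrays per fragment, differences of that size are therefore not excluded for these genes. The 3 yolk protein genes are related in sequence, and whether their probes cross-hybridise was not tested.

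Other genes known for their part in the fat body were taken from a list of 20, of which 18 had a probe set and 16 were tested. None was called in either direction, beside 0.915% of all tested probe sets. An unadjusted limma p under 0.05 was seen for 4 of the 16, beside 8.97% of all tested. The median log2 difference was 0.24, with 9 values above 0 and 7 below. The 3 body wall values lay above all 3 wing/hinge values for 4 of the 16, beside 8.48% of all tested. The reverse held for 2, beside 6.53%. Tsf1, which encodes the iron carrier transferrin of the haemolymph, read 155.7, 163.0 and 117.7 in body wall and 71.8, 16.6 and 24.2 in wing/hinge. The groups were apart, and the log2 difference was 2.13 (SE 0.49, limma adjusted p = 0.171), which passed without wing/hinge 1 (2.70, limma adjusted p = 0.0378). Wing/hinge 1 was the only wing/hinge array on which Tsf1 lay above the highest control. Of the values left, 24.2 was under the highest control of its array, and 16.6 was also raised to the floor of 20.4. Gnmt, the gene of glycine N-methyltransferase, gave 1.51 (SE 0.43, limma adjusted p = 0.301) and was separated in the same direction. All its wing/hinge values lay under the highest control of their array, and the 14.4 of wing/hinge 1 was raised to the floor. Npc2a, a sterol-binding protein gene, at 0.24 and the lipid transfer protein gene Mtp also had their body wall values above the others. For Npc2a the gap was only 0.2, between 223.8 on body wall 1 and 223.6 on wing/hinge 1.

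The opposite order was seen for Pepck1, the gene of the gluconeogenic enzyme phosphoenolpyruvate carboxykinase, and for Lsd-2, which encodes a lipid droplet protein. Pepck1 read 159.1, 113.4 and 114.3 in body wall and 264.1, 300.6 and 261.7 in wing/hinge (log2 difference -1.11, SE 0.24; limma adjusted p = 0.140). Lsd-2 differed by -0.90 (SE 0.35; limma adjusted p = 0.511) and was the brightest of the list, reaching 3426 on wing/hinge 3. The names Gnmt, Npc2a and Pepck1 were chosen after their values were seen. The other bright gene, Glyp (glycogen phosphorylase), differed by -0.01 (SE 0.36), a sign that changed with the setting.

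**Figure D2:**
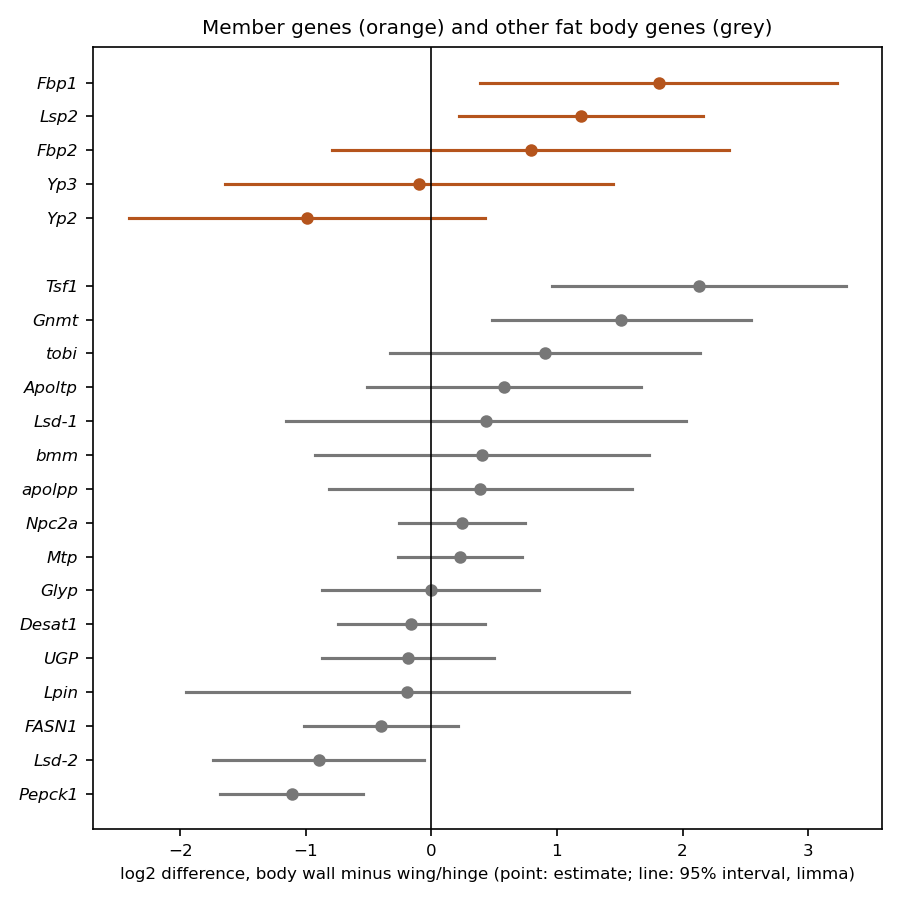
Log2 difference, body wall minus wing/hinge, of the 5 tested member genes (orange) and of 16 other fat body genes (grey). Points are limma estimates and lines their 95% intervals; Fbp1 at 1.81 and Lsp2 at 1.19 lie to the right of 0, and none of the 21 passed after adjustment.

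Defining fat body markers were read as a set of 7 genes, Tsf1 among them, 6 with a probe set. Their summed intensity ran from 966.2 to 1152.3 in body wall and from 739.3 to 843.9 in wing/hinge, so the groups did not overlap. Mtp, the gene of the microsomal triglyceride transfer protein that loads lipoproteins, made up most of that sum, with 563.1 to 714.7 per array. Without Mtp, a step added after the values were seen, the sums were 296.7 to 437.6 and 167.8 to 189.1. With Tsf1 left out as well they were 133.7 to 281.9 and 116.6 to 164.9 over 4 probe sets and overlapped, so the separation of the sum without Mtp rested on Tsf1. The sum over all 18 probe sets of the longer fat body list also overlapped, at 4663 to 6798 in body wall and 6115 to 7436 in wing/hinge. Its brightest genes weighed heavily in that sum. They were Lsd-2, at 990.5 to 3426.2 per array and separated toward wing/hinge, and Glyp, at 685.0 to 1439.4. The sum without them was not taken. All 5 tested genes of the 7 had log2 differences above 0, with a median of 0.58. None was called, beside 0.915% of all tested probe sets, and 1 had an unadjusted limma p under 0.05, beside 8.97%. The body wall values lay above all wing/hinge values for 3 of the 5 (Mtp, Tsf1 and srp), beside 8.48% of all tested. The lipoprotein genes apolpp (log2 difference 0.39) and Apoltp (0.58) and Mtp itself (0.23) did not pass. The GATA factor gene srp read 54.3, 28.4 and 23.6 in body wall and 8.8, 10.9 and 13.3 in wing/hinge. It was under the highest control on all 6 arrays and under the floor on every wing/hinge array, so its fold is not given. AkhR, the adipokinetic hormone receptor gene, was above the highest control on 1 array and was not tested.

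Markers of other cell types were read beside them, and the single genes named from those lists were chosen after their values were seen. The haemocyte list summed to 449.0 to 1022.8 in body wall and 260.5 to 554.6 in wing/hinge over 7 probe sets, with overlap. All 5 tested members had log2 differences above 0, from 0.60 to 1.05. None was called or had an unadjusted limma p under 0.05, beside 0.915% and 8.97% of all tested probe sets. The prophenoloxidase gene PPO2 (88.4 to 434.3) and the peroxidasin gene Pxn (62.6 to 222.5) were above the highest control on all 6 arrays, and NimC1 and lz were under it on every array. Salivary gland markers summed to 369.7 to 530.8 and 375.5 to 565.6 over 8 probe sets, with Sgs3, Sgs4 and Sgs7, genes of the salivary glue, under the highest control on all arrays. The glue gene Sgs8 (156.7 to 279.9) was above it on all 6 arrays and the salivary gland factor gene sage on 5. Larval muscle markers summed to 353.2 to 659.2 and 319.5 to 528.2 over 4 probe sets, and the myosin light chain gene Mlc2 was above the highest control on all 6 arrays. Tracheal markers summed to 202.4 to 323.3 in body wall and 593.6 to 789.3 in wing/hinge over 2 probe sets. The higher wing/hinge sum came from vvl (-1.84, called), which the wing pouch also expresses, while the FGF receptor gene btl gave 1.82 (limma adjusted p = 0.180). All wing/hinge values of btl, 11.6 to 18.5, were under the highest control of their array and were raised to the floor of 20.4. The part of these cells in the values of Lsp2 and Fbp1 was not tested.

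**Figure D3:**
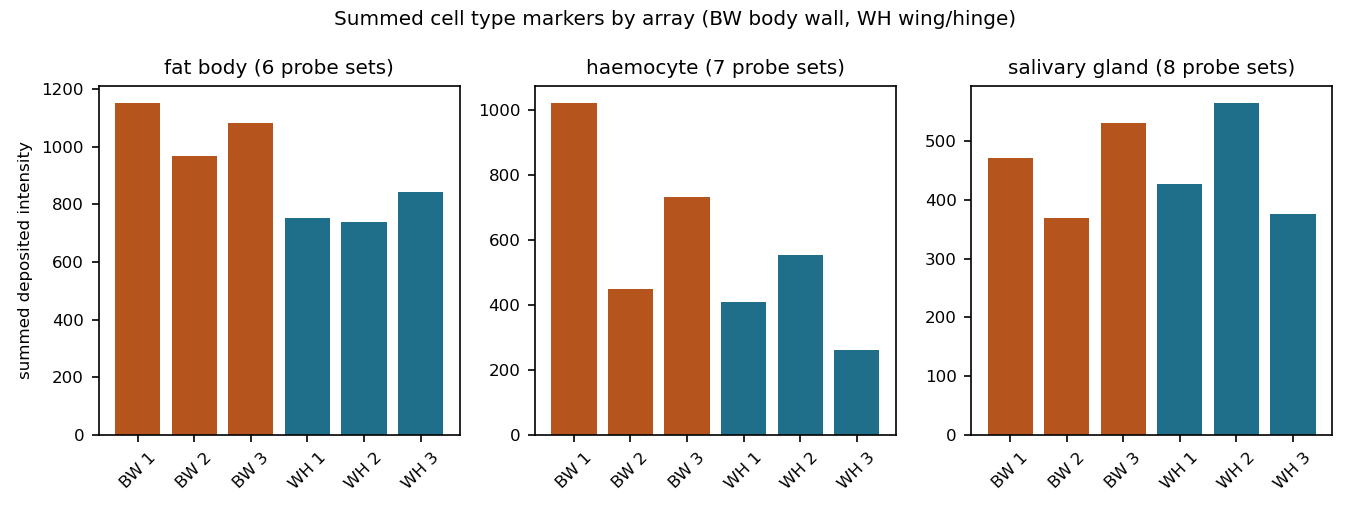
Summed deposited intensity of marker probe sets for fat body (6), haemocytes (7) and salivary gland (8) on each body wall (BW, orange) and wing/hinge (WH, blue) array. The fat body sums are 966.2 to 1152.3 in body wall and 739.3 to 843.9 in wing/hinge, and the other lists overlap between fragments.

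Regulators of the storage and yolk genes were measured at 15 of 18 listed genes, all tested. None was called or had an unadjusted limma p under 0.05, beside 0.915% and 8.97% of all tested probe sets. The median log2 difference was 0.11. The ecdysone receptor gene EcR read 127.1, 167.7 and 202.0 in body wall and 30.0, 148.4 and 144.0 in wing/hinge (log2 difference 0.92, SE 0.63; limma adjusted p = 0.772). Without wing/hinge 1 the difference was 0.15. Its partner usp gave -0.33, and the ecdysone-response factor gene br, the brightest regulator, -0.25. The gene dsx, whose sex-specific products control the yolk protein genes in the adult fat body, read 124.6, 154.4 and 115.7 in body wall and 163.2, 195.3 and 253.9 in wing/hinge. These groups did not overlap (log2 difference -0.62, SE 0.26; limma adjusted p = 0.557). Aef1, the gene of a repressor that binds the fat body enhancers of Adh and yolk protein genes, was likewise separated toward wing/hinge at -0.51 (limma adjusted p = 0.699) and was named after its values were seen. Groups were separated for 3 of the 15 regulators. Besides dsx and Aef1 this was srp, toward body wall and under the highest control on every array. Of all tested probe sets, 8.48% were separated toward body wall and 6.53% toward wing/hinge. The bright sex-determination genes tra2 and ix gave -0.45 and -0.08.

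Genes of yolk uptake and eggshell were included because follicle cells are the other source of yolk proteins. Of 10 listed, 8 had a probe set, 7 were tested and none was called, beside 0.915% of all tested probe sets. An unadjusted limma p under 0.05 was seen for 1 of the 7, beside 8.97% of all tested. That was psd, an eggshell gene also named after its values were seen, at 1.14 (SE 0.40, limma adjusted p = 0.427). It lay above the highest control on 2 arrays, neither of them wing/hinge. The yolk protein receptor gene yl read 101.2, 73.0 and 144.8 in body wall and 94.8, 53.6 and 124.9 in wing/hinge (log2 difference 0.25). The brightest members were the vitelline membrane genes Vm34Ca (0.17) and Vm32E (0.36) and the chorion gene Cp36 (-0.86). Without body wall 1, Vm32E gave -0.31 and Cp36 -1.63. For Vm32E the value was -0.31 without wing/hinge 3 and 1.02 with the wide- and narrow-range sets as a block. Cp36 read 241.2 on body wall 1 and 51.2 and 46.4 on body wall 2 and 3, so that body wall 1 was the high array, as for Yp2. The follicle markers as a set summed to 200.3 to 396.9 in body wall and 310.6 to 415.7 in wing/hinge over 4 probe sets.

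The genes whose log2 values over the 6 arrays ran most like those of Lsp2, Fbp1 and Yp2 were found by Pearson's r among 10413 probe sets of other genes. With only 6 arrays, 135 of these had r over 0.9 with Lsp2, 97 with Fbp1 and 62 with Yp2, so the order at the top is a description. Those nearest to Lsp2 were CG17544 (r = 0.995), CG34450 and the actin nucleator gene spir (both 0.991), and the beta-galactosidase gene Gal and CG8236 (both 0.986). The spir values were 166.5, 156.8 and 126.3 in body wall and 23.2, 97.4 and 72.2 in wing/hinge. Nearest to Fbp1 were the neprilysin-like gene Nepl10 (0.990), the juvenile hormone receptor gene gce (0.985), CG14414 (0.984), Ids (0.982) and CG32333 (0.982). Nearest to Yp2 were CG42541 (0.980), Pldn (0.969), the Spätzle family gene spz3 (0.968), CG42249 (0.968) and CG17985 (0.965). Some were close to background, with CG8236 above the highest control on 1 array and Ids on 2. CG8236, Ids and CG42541 each had 1 value raised to the floor before r was taken. None of these 15 was called between the fragments, beside 0.915% of all tested probe sets. None was on the fat body list, which holds only 16 tested genes, so neither count is read as a result.

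The genes next to the members in the RefSeq order were read beside them. Of the nearest protein-coding neighbours of the 9 genes, 9 outside the set were tested. Their log2 differences ran from -0.33 to 1.05, with no call and no separated groups. Over all tested probe sets 0.915% were called, and 8.48% and 6.53% were separated toward body wall and wing/hinge. DEF8 beside Lsp2 gave -0.01, and CG8100 and Sox21a beside Fbp1 gave -0.33 and 0.37.

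**Figure D4:**
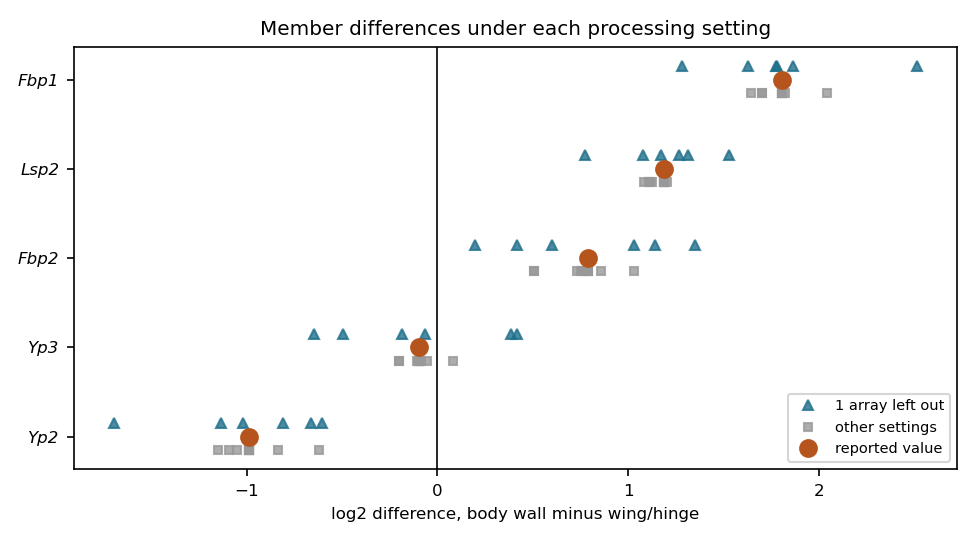
Log2 difference, body wall minus wing/hinge, of the 5 tested member genes as reported (orange circles), with 1 array left out (blue triangles) and under the other processing settings (grey squares). Fbp1 (1.28 to 2.52) and Lsp2 (0.77 to 1.53) stay above 0 throughout, Yp2 stays below 0, and Yp3 lies on both sides.

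Across the 17 other settings run, Lsp2 and Fbp1 were higher in body wall in all 17 and were called in none. For these 2 genes non-overlapping groups fix the direction when arrays are left out. The lowest limma adjusted p over those settings was 0.189 for Lsp2, with the intensity trend in the variance, and 0.0546 for Fbp1, without wing/hinge 2.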

How the data were processed

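The authors deposited 1 linear-scale intensity per probe set for each of 3 body wall and 3 wing/hinge samples. Their 2% trimmed mean was 300.0 to 300.1 on every array, so they were used as already scaled. Neither the summary algorithm nor a genome build is given in the sources used. Gene symbols came from the platform annotation (12443 of 13966 fly probe sets with 1 symbol, 327 with several, 1196 with none), and 12394 matched RefSeq by gene ID. Groups came from the sample titles. RefSeq served for names and gene order only.

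A floor was set at the 20th percentile of fly probe sets (20.4), and lower values were raised to it before log2. The 11698 probe sets above it on at least 3 arrays were fitted with limma (version 3.58.1, R 4.3.3; two-sided, no block) and adjusted by Benjamini-Hochberg over all of them. Folds of values near the floor are understated. With 3 arrays a group the smallest exact permutation p is 0.1, and none was computed. The fit was tested on simulated data. A list gene with several probe sets is given by its brightest one.

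Members, lists and alternatives were chosen with earlier results of these data known. The text names all members, the 3 brightest and the defining genes of the fat body, regulator and uptake lists, the fragment and muscle precursor markers, and for the brightest member of each family the 5 genes with the highest r; others are marked as chosen after their values were seen. The number of arrays limits the precision. P-values measure the spread between these samples, and separate dissections are not stated in the labels.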

Additional observations from a re-analysis of the deposited data

How the results depend on the processing

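No member was called under any setting run. The count of members above the controls on every array was 2 as reported, against the pooled 95th percentile of the controls and with quantile normalization, the only settings run for it. Of the fat body, regulator and uptake list genes, 0 were called in all settings except without wing/hinge 1, where Tsf1 was called (range 0 to 1 with single arrays left out). In that setting both remaining wing/hinge values of Tsf1 lay under the highest control of their array. The 107 probe sets called in all became 10 with the replicate block, 52 with the wide- and narrow-range sets as a block, 49 with body wall 1 and 2 averaged and 34 to 47 with single arrays left out. Fewer residual degrees of freedom come with each of these. The numbers were not taken as pairs: deviations of same-numbered arrays from their group means correlated at 0.06, -0.16 and 0.19, and body wall 1 and 2 correlated best with another number. With the replicate block Lsp2 differed by 1.19 (limma adjusted p = 0.540) and Fbp1 by 1.81 (limma adjusted p = 0.448). Among members and named list genes, signs changed only for uncalled values smaller in size than their SE, and the cause was not tested. The largest of these was Vm32E at 0.36 (SE 0.76). Yp3 gave 0.0819 with the block by range and -0.65 to 0.42 with single arrays left out. Glyp gave 0.0247 with quantile normalization, 0.13 with body wall 1 and 2 averaged and -0.28 to 0.25 with single arrays left out. For ix the values were 0.00724 with the block by range and -0.22 to 0.0646 with single arrays left out. With single arrays left out, yl ran from -0.0895 to 0.52, Vm32E from -0.31 to 0.84 and Vm34Ca from -0.14 to 0.50. Yp1 had only values close to background, so no setting gives it a usable fold.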
